A study of Mus musculus with 6 samples.

Results

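The 9 genes described here, Mgl2, Clec10a, Retnla, Chil3, Ear2, Arg1, Ccl17, Ccl22 and Ccl24, are classic markers of alternatively activated mouse macrophages. They were taken by name from the 34187 genes of the count matrices and followed in macrophages, monocytes and dendritic cells (DCs) of mouse pancreatic tumors after 3 treatments. All 9 were found. Alternative activation is the program that macrophages enter when IL-4 or IL-13 binds a receptor holding the chain encoded by Il4ra, which activates the transcription factor STAT6. Its products bind sugars (the lectins of Mgl2 and Clec10a), divert arginine (Arg1) and call in CCR4- or CCR3-bearing cells (the chemokines of Ccl17, Ccl22 and Ccl24). Mgl2 encodes CD301b and is also used to mark a subset of type 2 conventional DCs (cDC2), so the cell type that holds each transcript matters as much as its total.

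Mice carried subcutaneous 6694c2vTRP1 tumors, a pancreatic ductal adenocarcinoma line of KPC origin, and CD45+ tumor cells were bead-isolated for 5′ single-cell RNA-seq with hashtag antibodies that mark the mouse of origin. All 3 groups carried this tumor and were given intraperitoneal injections on the same schedule, 2 doses every other day from day 8, with harvest on day 14: PBS, mono-IL10 at 26 µg per mouse, or IL10/2-Trikine at 30.6 µg per mouse. Mono-IL10 is a monomeric, engineered human IL-10. IL10/2-Trikine joins it to an IL-2 variant, so that a chain of the IL-2 receptor is drawn into the IL-10 receptor complex. The methods name C57BL/6 mice of both sexes as hosts for this line and for its parent line, and state an age, 6 to 8 weeks, only in the account of the parent line. Each treatment was 1 library with 5 hashtags. The methods state 5 mice for the treated groups, and the 5 hashtags of the PBS library were likewise read as 5 mice. Treatment and library therefore cannot be told apart in any comparison, and the mouse was the replicate.

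The libraries held 44412 (PBS), 30528 (mono-IL10) and 55504 (IL10/2-Trikine) barcodes, and 34518, 24060 and 46104 of them passed the filters with medians of 9474, 11643.5 and 6399 unique molecular identifiers (UMIs). Between 17.9% and 32.1% of those cells had no clear hashtag and between 8.5% and 12.2% had more than 1, and these were left out of all values per mouse. Pairs of libraries shared 250, 441 and 311 barcodes among cells past the filters, at most 1.29% of a library. Despite the CD45 isolation, 40403 cells were tumor epithelial-like. Clusters were named from marker genes, with the panel left out of the clustering. They gave 7170, 5585 and 4741 macrophage-like cells (PBS, mono-IL10 and IL10/2-Trikine), with C1qa, Apoe and Adgre1 at 25.8, 146.3 and 2.68 UMIs per 10000 UMIs. These are not all cells with macrophage markers, since clusters that mixed them with markers of another lineage were left out. Among those were clusters of 1986 cells with neutrophil markers (1116, 501 and 369 by treatment) and of 1546 cells with T cell markers (284, 188 and 1074). Monocyte-like cells numbered 265, 150 and 35 (Ly6c2, Ccr2 and Plac8), cDC1-like cells 205, 75 and 53 (Clec9a and Xcr1), cDC2-like cells 481, 287 and 257 (Cd209a, Itgax and H2-DMb2), and mature DC-like cells 153, 98 and 114 (Ccr7 and Fscn1). The other cDC2 markers used, Flt3, Zbtb46 and Cbfa2t3, were low in cDC2-like cells (0.434, 0.509 and 0.948 UMIs per 10000 UMIs). Their highest cluster means were 2.70, 1.23 and 1.77. The unit throughout is CPM: a gene's UMIs summed over one mouse's cells of a class, per 1000000 UMIs of those cells. Such a sum cannot separate more expressing cells from more RNA per expressing cell, so shares of cells with a UMI are also given. The macrophage-like cells of the IL10/2-Trikine library were shallower (median 2705 UMIs, against 5098.5 in PBS and 6176 in mono-IL10), and shares of cells are therefore quoted after thinning each cell to 2000 UMIs, which kept 6889, 5452 and 3919 macrophage-like cells.

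The panel was chosen by gene names, with the levels measured in these same cells under these treatments already known. Their differences between treatments in macrophages, monocytes and DCs are therefore descriptions without p-values: the value in each mouse, the fitted log2 fold change with its standard error (edgeR), and whether the mice of both groups overlapped. As a floor for free RNA, annotated T and NK cells of the same libraries were read in the same way, and there each panel gene except Arg1 was at or under 5.68 CPM. Arg1 was at 31.7, 36.6 and 35.97 CPM in those cells.

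In macrophage-like cells the panel did not move as 1 block. Mgl2, Ccl17, Ccl22 and Ear2 were lower after mono-IL10, and the first 3 of them also after IL10/2-Trikine, in all mice. Arg1 and Ccl24 were higher after mono-IL10 in all mice. Mice did not overlap for 6 of the 9 genes on the low side and 2 on the high side in mono-IL10 against PBS, where 13.1% and 5.6% of all 11764 genes fitted had mice that did not overlap in those directions. For IL10/2-Trikine against PBS the counts were 3 lower and 0 higher, beside 5.95% and 5.62% of all genes. For IL10/2-Trikine against mono-IL10 mice overlapped for all 9 genes, beside 5.24% of all genes higher and 2.64% lower without overlap. Nothing is read from these counts, since the same contrasts led to the choice of the panel.

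**Figure D1:**
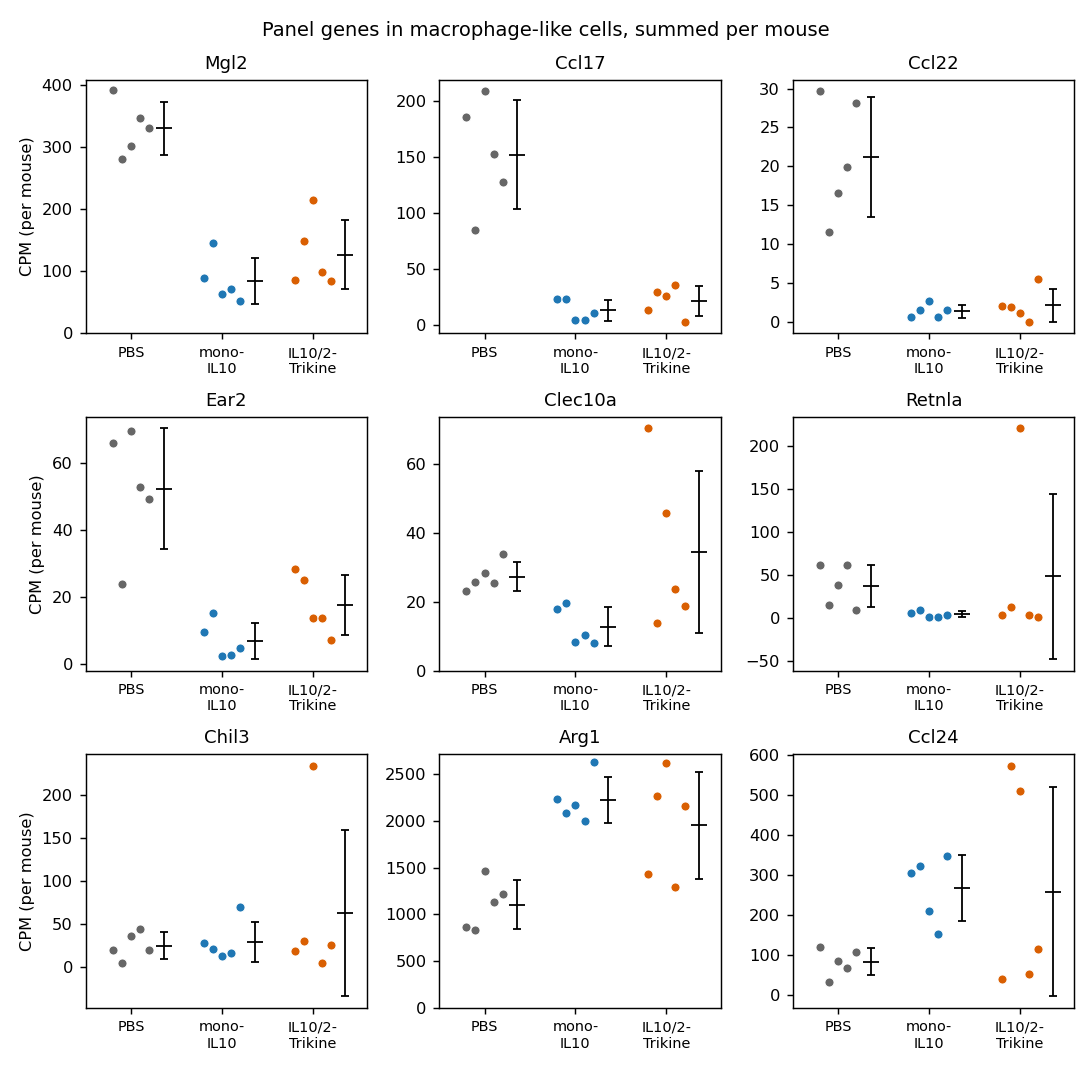
Levels of the 9 panel genes in macrophage-like cells, in CPM on linear axes that differ between genes, with 1 dot per mouse and a bar for the mean ± SD of the 5 mice of each treatment. Mgl2, Ccl17 and Ccl22 of both treated groups lie below all PBS mice, while Arg1 and Ccl24 of the mono-IL10 mice lie above them.

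Of the lectins, Mgl2 stood at 391.4, 280.3, 301.2, 347.1 and 331.6 CPM in the macrophage-like cells of PBS mice 1 to 5. It stood at 89.6, 145.9, 63.8, 71.7 and 51.7 CPM after mono-IL10 and at 86.9, 148.2, 214.4, 99.7 and 85.1 CPM after IL10/2-Trikine. Every treated mouse was below every PBS mouse, and the treated groups overlapped. The means were 330.3 ± 42.9, 84.5 ± 37.0 and 126.9 ± 55.2 CPM (SD, n = 5 each), a log2 fold change of -1.87 ± 0.23 (SE) for mono-IL10 and -1.44 ± 0.24 for IL10/2-Trikine, or 3.66-fold and 2.72-fold lower than PBS. The share of thinned cells with an Mgl2 UMI was 32.0% in PBS, 8.46% after mono-IL10 and 12.8% after IL10/2-Trikine (48.0%, 17.2% and 16.6% unthinned). In annotated T and NK cells, whose median depths were 2780, 3959 and 2635 UMIs, that share was 0.664%, 0.374% and 0.320% (1.16%, 0.474% and 0.414% unthinned).

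Clec10a, which encodes the sister lectin CD301a, is the next gene to Mgl2 on chromosome 11 with 0 annotated genes between them. In macrophage-like cells Clec10a stood at 23.0, 25.6, 28.2, 25.5 and 33.8 CPM in PBS mice, at 17.7, 19.7, 8.14, 10.2 and 8.09 CPM after mono-IL10, and at 70.4, 13.9, 45.6, 23.7 and 18.6 CPM after IL10/2-Trikine. All mono-IL10 mice were below all PBS mice (log2 fold change -0.97 ± 0.31), whereas the IL10/2-Trikine mice lay on both sides of PBS (0.45 ± 0.32). Leaving out IL10/2-Trikine mouse 1 turned the latter value to -0.30. The difference between the 2 lectins was not tested.

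Among the secreted proteins, Ear2, an eosinophil-associated ribonuclease, stood at 65.9, 23.8, 69.6, 52.7 and 49.1 CPM in macrophage-like cells of PBS mice. After mono-IL10 it stood at 9.55, 15.1, 2.16, 2.63 and 4.78 CPM, below every PBS mouse (-2.80 ± 0.36, 6.94-fold lower). After IL10/2-Trikine it stood at 28.3, 25.01, 13.7, 13.6 and 7.05 CPM (-1.34 ± 0.37), and 3 of the 5 mice were below all PBS mice. Among cells with at least 2000 genes the latter fold change was -0.52.

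Retnla, which encodes the secreted protein RELMα (Fizz1), was carried by few cells. It stood at 61.4, 15.5, 37.6, 61.4 and 9.69 CPM in PBS mice, at 5.38, 9.53, 0.958, 1.55 and 3.68 CPM after mono-IL10 (-3.02 ± 0.85), and at 3.78, 12.98, 220.1, 3.59 and 1.01 CPM after IL10/2-Trikine (-0.39 ± 0.84). All mono-IL10 mice were below all PBS mice, and 1 IL10/2-Trikine mouse was above the other 14 mice. In PBS, 1746 Retnla UMIs came from 128 of 7170 macrophage-like cells, 410 of them from 1 cell and 54.1% from 5 cells. In IL10/2-Trikine mouse 3, 94 of 193 UMIs came from 1 cell, and without that mouse the log2 fold change against PBS was -2.67, whereas it was 0.16 without IL10/2-Trikine mouse 1 and 0.43 after thinning the sums to the lowest total. Without the highest cell of each mouse, the counts of panel genes whose mice did not overlap in macrophage-like cells were as given above.

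Chil3 encodes the chitinase-like protein Ym1 and is also a known transcript of classical monocytes. In macrophage-like cells it stood at 19.8, 5.00, 35.8, 44.1 and 20.1 CPM in PBS mice, at 28.0, 21.5, 12.6, 16.6 and 69.8 CPM after mono-IL10, and at 18.2, 30.1, 233.8, 5.02 and 25.7 CPM after IL10/2-Trikine. The 3 groups overlapped, and the log2 fold changes against PBS were 0.36 ± 0.60 and 0.92 ± 0.69. Each turned on 1 mouse, to -0.15 without mono-IL10 mouse 5 and to -0.17 without IL10/2-Trikine mouse 3.

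Arg1, the arginase that turns arginine into ornithine and urea, went the other way from Mgl2. In macrophage-like cells it stood at 869.2, 828.7, 1469, 1133 and 1224 CPM in PBS mice, at 2235, 2092, 2171, 2000 and 2629 CPM after mono-IL10, and at 1432, 2267, 2623, 1291 and 2163 CPM after IL10/2-Trikine. Every mono-IL10 mouse was above every PBS mouse (1.10 ± 0.17, 2.14-fold higher), and 3 of the 5 IL10/2-Trikine mice were (0.83 ± 0.17). The thinned share of cells with an Arg1 UMI was 58.9% in PBS, 81.5% after mono-IL10 and 76.5% after IL10/2-Trikine (72.9%, 91.7% and 79.9% unthinned), against 4.20%, 7.72% and 5.12% in annotated T and NK cells (6.78%, 12.3% and 7.86% unthinned).

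Of the chemokines, Ccl17 and Ccl22 are the ligands of CCR4, the receptor of Th2 and regulatory T cells, and lie close together on chromosome 8 with 1 protein-coding gene, Cx3cl1, between them. In macrophage-like cells Ccl17 stood at 185.7, 85.0, 209.0, 153.2 and 128.1 CPM in PBS mice, at 23.3, 23.2, 4.91, 4.95 and 11.2 CPM after mono-IL10, and at 13.7, 29.8, 26.2, 35.9 and 3.02 CPM after IL10/2-Trikine. All treated mice were below all PBS mice, with log2 fold changes of -3.35 ± 0.35 and -2.92 ± 0.41 (10.2-fold and 7.56-fold lower). Ccl22 stood at 29.7, 11.5, 16.5, 19.9 and 28.2 CPM in PBS mice, at 0.608, 1.54, 2.64, 0.619 and 1.47 CPM after mono-IL10, and at 2.06, 1.90, 1.14, 0 and 5.54 CPM after IL10/2-Trikine. The treated mice were below all PBS mice and under the highest panel level in T and NK cells other than that of Arg1, and the log2 fold changes were -3.85 ± 0.34 and -3.19 ± 0.41.

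Ccl24, the CCR3 ligand eotaxin-2, was on the opposite side from the CCR4 ligands. In macrophage-like cells it stood at 119.9, 34.6, 85.1, 69.2 and 109.6 CPM in PBS mice, at 305.8, 322.7, 211.9, 152.8 and 348.3 CPM after mono-IL10, and at 41.7, 574.3, 511.0, 53.8 and 115.3 CPM after IL10/2-Trikine. All mono-IL10 mice were above all PBS mice (1.78 ± 0.51, 3.43-fold higher). The IL10/2-Trikine mice split widely (1.60 ± 0.53), 2 of them above all PBS mice and 3 within the PBS range.

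The promoters of 2 panel genes are shown because STAT6 is the factor of the program and its usual site is TTCNNNNGAA, which reads the same on both strands. Of 32851 RefSeq promoter windows (GRCm38.p6, 250 bases before to 50 after each start), 2284 or 6.95% held those letters, as did 2 of the 6 panel genes with a window, Retnla and Ccl17. The match in Retnla lies 145 to 136 bases before the start and that in Ccl17 154 to 145 bases before it. Each stretch is printed up to the first annotated exon, 5′ to 3′ on the + strand (Retnla chr16:48842359-48842550, Ccl17 chr8:94810203-94810452), with the match in capitals.
Retnla: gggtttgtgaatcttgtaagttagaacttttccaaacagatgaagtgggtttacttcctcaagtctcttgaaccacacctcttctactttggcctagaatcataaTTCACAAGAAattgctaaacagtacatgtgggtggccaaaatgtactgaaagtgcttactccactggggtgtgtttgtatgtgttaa
Ccl17: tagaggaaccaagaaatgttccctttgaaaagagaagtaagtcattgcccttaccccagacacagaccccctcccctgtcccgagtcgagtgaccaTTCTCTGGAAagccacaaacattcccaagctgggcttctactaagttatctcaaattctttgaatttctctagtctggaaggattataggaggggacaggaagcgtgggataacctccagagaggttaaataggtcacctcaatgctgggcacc
The shorter spacing TTCNNNGAA, shared by other STAT factors, was in 2726 windows (8.30%), among them those of Chil3 and Ccl17. A match describes letters, not a bound site, and no binding was measured here.

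Among single macrophage-like cells of PBS mice, Ccl17 and Ear2 were seen more often beside Mgl2. After thinning, 2202 PBS cells had an Mgl2 UMI and 4687 had none. A Ccl17 UMI was in 11.3% of the former and 1.73% of the latter, an Ear2 UMI in 9.45% and 1.98%, a Ccl22 UMI in 3.04% and 0.960%, and a Retnla UMI in 1.86% and 0.576%. Clec10a (6.36% and 4.05%) and Ccl24 (6.68% and 4.52%) leaned the same way. Arg1 showed the reverse, at 50.6% of cells with Mgl2 and 62.7% of those without, as did Chil3 at 1.95% and 2.84%. After mono-IL10 the 461 cells with Mgl2 still held Ccl17 more often (4.99%) than the 4991 without (0.240%), whereas Arg1 (78.1% and 81.8%) and Chil3 (0.651% and 3.35%) were again seen less often beside Mgl2. After IL10/2-Trikine the shares with Ear2 were 7.60% of 500 cells with Mgl2 and 1.17% of 3419 without, those with Chil3 1.20% and 2.98%, those with Arg1 75.8% and 76.6%, and those with Ccl22 0.2% and 0.263%. In the remaining pairs of the treated groups the share was higher beside Mgl2. At least 3 panel genes were seen together in 6.72%, 2.55% and 4.24% of macrophage-like cells, and none of them in 22.0%, 15.4% and 17.7%. Among annotated T and NK cells, 93.4%, 90.7% and 92.3% had none.

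The 23353 cells of the macrophage, monocyte and DC compartment formed 25 clusters, 15 of them macrophage-like, and shares below are of all cells or UMIs of this compartment. The mixed clusters left out above are outside it. The clusters were made without the panel genes, and the values below describe them with no test. One macrophage-like cluster of 1056 cells, led by Areg, Calcb and Dcstamp outside the panel, had 4 panel genes (Ear2, Ccl17, Retnla and Mgl2) among its 10 leading genes by fold. Its macrophage marker score, 0.307, was the lowest of the 15 and close to the naming limit of 0.25, where the others ran from 0.385 to 0.961. The cluster is thus weakly marked as macrophage. This cluster held 6.29% of the compartment's UMIs but 42.2% of Ear2, 32.0% of Retnla, 22.4% of Ccl17 and 19.5% of Mgl2 UMIs. Its share of the compartment was 7.74 ± 1% in PBS mice, 2.50 ± 1.08% after mono-IL10 and 1.73 ± 0.37% after IL10/2-Trikine (SD, n = 5 each). Within it, Mgl2 was at 837.8 ± 106.5 CPM in 5 PBS mice, 430.7 ± 260.7 in 5 mono-IL10 mice and 603.8 ± 140.1 in the 3 IL10/2-Trikine mice with enough cells. Ear2 was at 259.8 ± 93.7, 82.4 ± 37.3 and 367.2 ± 193.6 CPM there.

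Clec10a did not share that place. A cluster of 455 macrophage-like cells led by Lyve1, Cd209f and Fcna (Lyve1 is a marker of tissue-resident perivascular macrophages) held it at 268.0 CPM over all treatments and 18.7% of all Clec10a UMIs for 2.15% of the compartment's UMIs. By treatment Clec10a was at 241.6, 118.1 and 747.3 CPM there, and after mono-IL10 a cDC2-like cluster stood higher (148.9 CPM). Retnla was at 166.8 CPM there. Arg1 pooled over all cells was at 3290 CPM in a cluster led by Gpnmb, Cd36 and Fabp4, at 3249 CPM in an unnamed one led by Lpl, at 3222 CPM in one led by Cxcl1, Il1a and Ckap2l and at 2910 CPM in one led by Ppbp, Gja1 and Pf4. The treatments gave unequal numbers of cells to each cluster, so these levels mix cluster with treatment. Within PBS the 4 levels were 2524, 3118, 2291 and 2150 CPM, after mono-IL10 4751, 4025, 3927 and 3438 CPM, and after IL10/2-Trikine 3494, 3255, 2966 and 2552 CPM. The Ppbp-led cluster, with 2530 cells, also held 18.0% of Ccl24 UMIs, and its share of the compartment was 4.33 ± 0.20% in PBS mice, 13.2 ± 2.99% after mono-IL10 and 21.0 ± 5.82% after IL10/2-Trikine. An unnamed Ccr2-led cluster held 27.2% of Ccl24 UMIs, at 979.1 CPM over all treatments. It was pooled from 319.0 CPM in PBS, where monocyte-like cells stood at 351.3 CPM, and from 2170 and 993.6 CPM after mono-IL10 and IL10/2-Trikine, where they stood at 1261 and 630.9 CPM. That cluster carried macrophage and monocyte markers without passing the naming rule, so its cells are outside the classes above. Over mice its Ccl24 was 328.3 ± 292.3, 2174 ± 777.7 and 1044 ± 647.9 CPM by treatment.

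**Figure D2:**
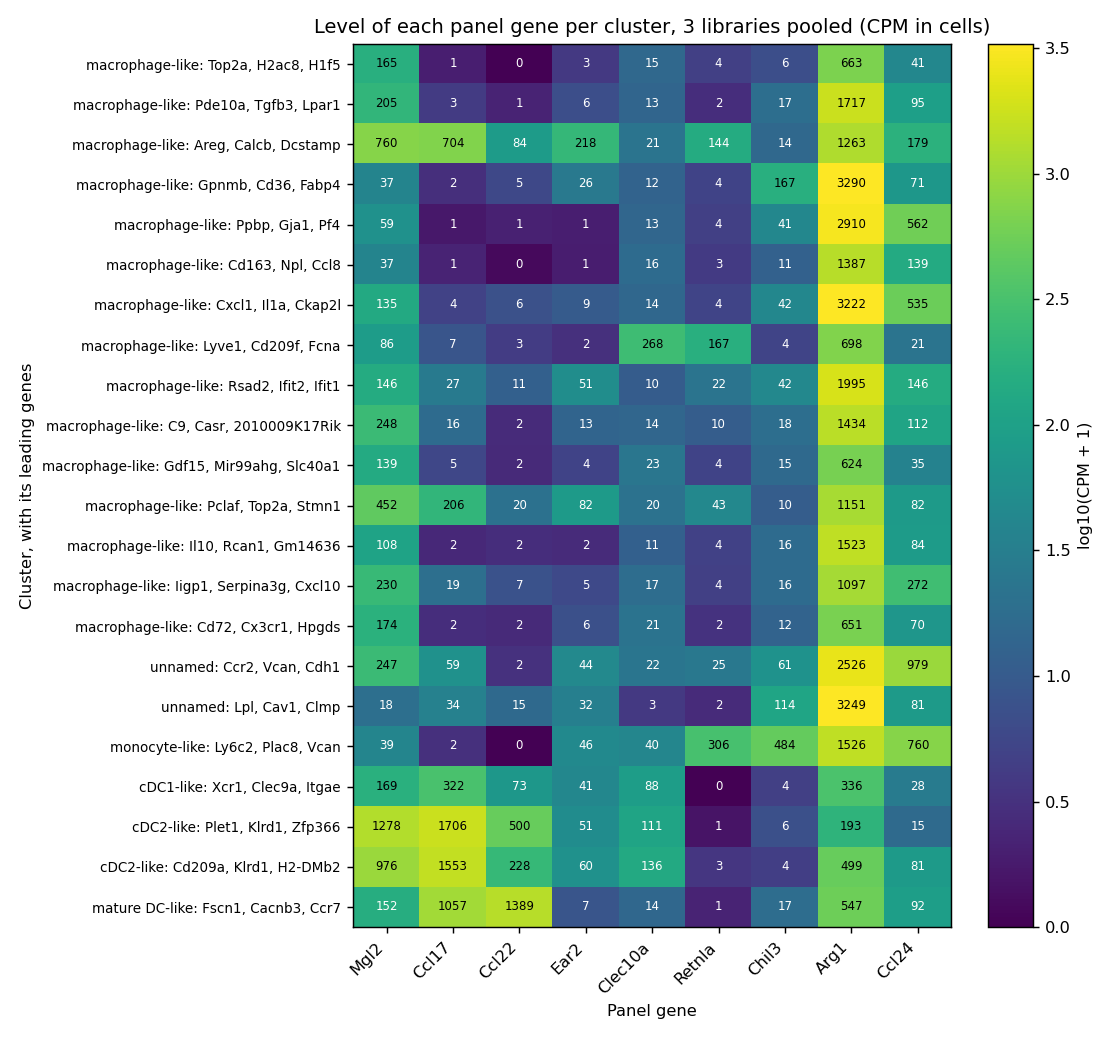
Pooled level of each panel gene (columns) in each named cluster and 2 unnamed ones of the macrophage, monocyte and DC compartment (rows, by class and leading genes), as CPM printed in the cells, with colour for log10(CPM + 1). Values are pooled over the treatments, which gave unequal cell numbers to the rows. Among macrophage-like rows, Mgl2 and Ccl17 peak in the Dcstamp-led row, and over all rows they peak in a cDC2-like row and Ccl22 in the mature DC-like row, as they do within each treatment. The pooled peak of Ccl24 in the unnamed Ccr2-led row does not hold in PBS, where the monocyte-like row is higher (351.3 against 319.0 CPM).

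Mgl2 was also lower within most macrophage-like clusters taken singly. Its log2 fold change for mono-IL10 against PBS was negative in 14 of 15, from -3.62 ± 0.28 in the Cd163-, Npl- and Ccl8-led cluster upward, with a median of -1.65. The exception was the interferon-response cluster led by Rsad2, Ifit2 and Ifit1 (0.34 ± 0.56). For IL10/2-Trikine all 15 were negative, from -2.02 ± 1.005 to -0.11 ± 0.31. Not every treated mouse had the 10 cells needed in each cluster. In the cluster led by Gdf15, for example, the IL10/2-Trikine mice gave 37, 10, 4, 6 and 6 cells. The 15 values also come from the same mice. Arg1 was higher in all 15 after both treatments, by 0.63 to 1.49 and by 0.09 to 1.67 on the log2 scale. To set cluster shares beside levels, CPM pooled over mice and macrophage-like clusters was recomputed with only the cluster shares changed, or only the levels within clusters. The clusters were made from the treated cells themselves, so a cell that changed state could change cluster and count under shares. These values therefore cannot tell a change of cell make-up from a change of expression. For mono-IL10 the pooled Mgl2 log2 ratio was -1.93, with -0.62 from shares alone and -1.43 from levels alone. For IL10/2-Trikine the pooled Mgl2 ratio of -1.56 split evenly (-0.80 and -0.83), and that of Ccl17, -2.91, leaned to shares (-1.81 and -1.01). Ear2 in IL10/2-Trikine was -1.05 in all, -1.36 by shares and 0.39 by levels.

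**Figure D3:**
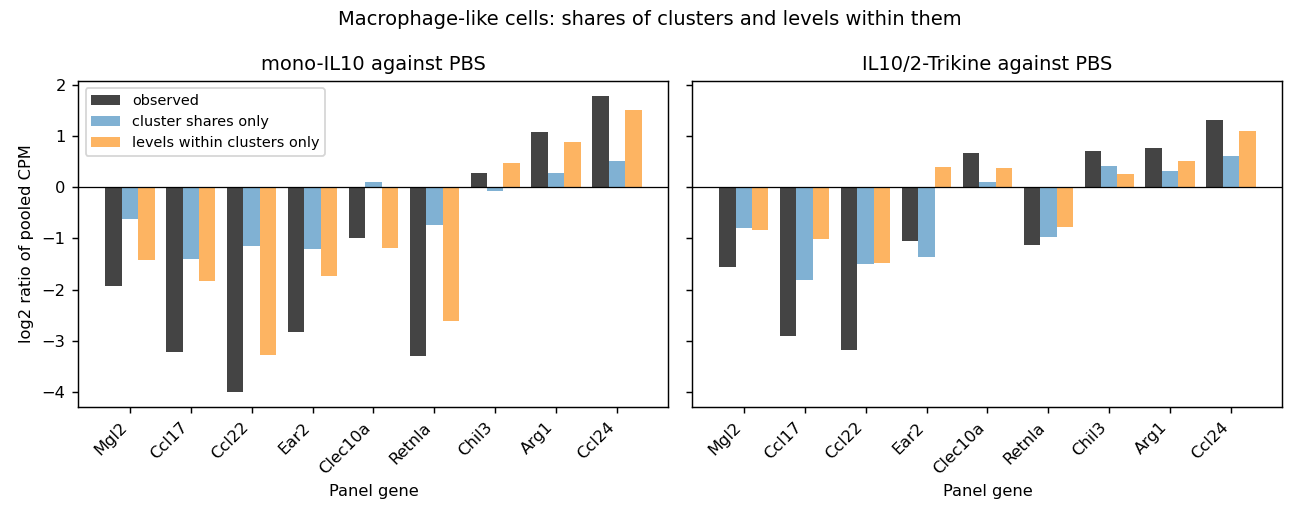
Log2 ratio of pooled CPM to PBS for each panel gene in macrophage-like cells, for mono-IL10 and IL10/2-Trikine. Bars give the ratio observed, the ratio with only cluster shares changed, and the ratio with only levels within clusters changed. For Mgl2 after mono-IL10 the levels-only bar (-1.43) is longer than the shares-only bar (-0.62).

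cDC2-like cells held the highest Mgl2 of the named classes, and there the treatments left it in overlapping ranges. It stood at 1237, 1071, 1213, 1758 and 920.1 CPM in PBS mice, at 819.7, 1271, 1216, 800.1 and 1214 CPM after mono-IL10, and at 677.1, 1086, 1265, 1140 and 854.9 CPM after IL10/2-Trikine. The log2 fold changes were -0.19 ± 0.17 and -0.38 ± 0.18. Among cells with at least 2000 genes Mgl2 after IL10/2-Trikine was lower than PBS by a log2 value of -0.90 and lower than mono-IL10 by one of -0.77. The thinned share of cells with a UMI was 75.6%, 75.8% and 74.4%. Whether the Mgl2 difference was larger in macrophage-like than in cDC2-like cells was not tested, since both entered the choice of the panel. Only 7 panel genes could be fitted in cDC2-like cells, since Retnla was at most 8.84 CPM and Chil3 at most 43.6 CPM, with a median over mice of 1.71 CPM in PBS and 0 in both treated groups.

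Ccl17 in cDC2-like cells stood at 2779, 2159, 2625, 3603 and 2250 CPM in PBS mice, at 955.3, 949.6, 632.4, 482.6 and 992.4 CPM after mono-IL10, and at 492.8, 1146, 505.9, 1147 and 1257 CPM after IL10/2-Trikine. All treated mice were below all PBS mice (-1.71 ± 0.21 and -1.62 ± 0.23, 3.26-fold and 3.07-fold lower), and the thinned share of cells with a UMI was 66.6%, 41.8% and 44.4%. Ccl22 was 495.3 ± 55.5 CPM in PBS, 240.1 ± 124.8 after mono-IL10 (-0.97 ± 0.29, no overlap) and 202.8 ± 160.4 after IL10/2-Trikine (-1.53 ± 0.37), where 1 mouse at 415.6 CPM reached the PBS range. Ear2 was 105.4 ± 60.5, 17.4 ± 6.90 and 55.6 ± 55.3 CPM, without overlap for mono-IL10 only. Arg1 was 189.6 ± 32.5 CPM in PBS and 501.8 ± 150.8 after IL10/2-Trikine, where all mice were above PBS (1.39 ± 0.28). After mono-IL10 it was 548.7 ± 261.6, with 4 of 5 mice above (1.56 ± 0.25). Clec10a overlapped throughout at 120.6 ± 34.4, 128.7 ± 51.1 and 65.3 ± 37.0 CPM, as did Ccl24, which reached at most 167.6 CPM. In all, 3 of 7 genes were lower and 0 higher without overlap for mono-IL10, beside 2.31% and 1.99% of 5236 genes. For IL10/2-Trikine 1 was lower and 1 higher, beside 1.34% and 1.66%.

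**Figure D4:**
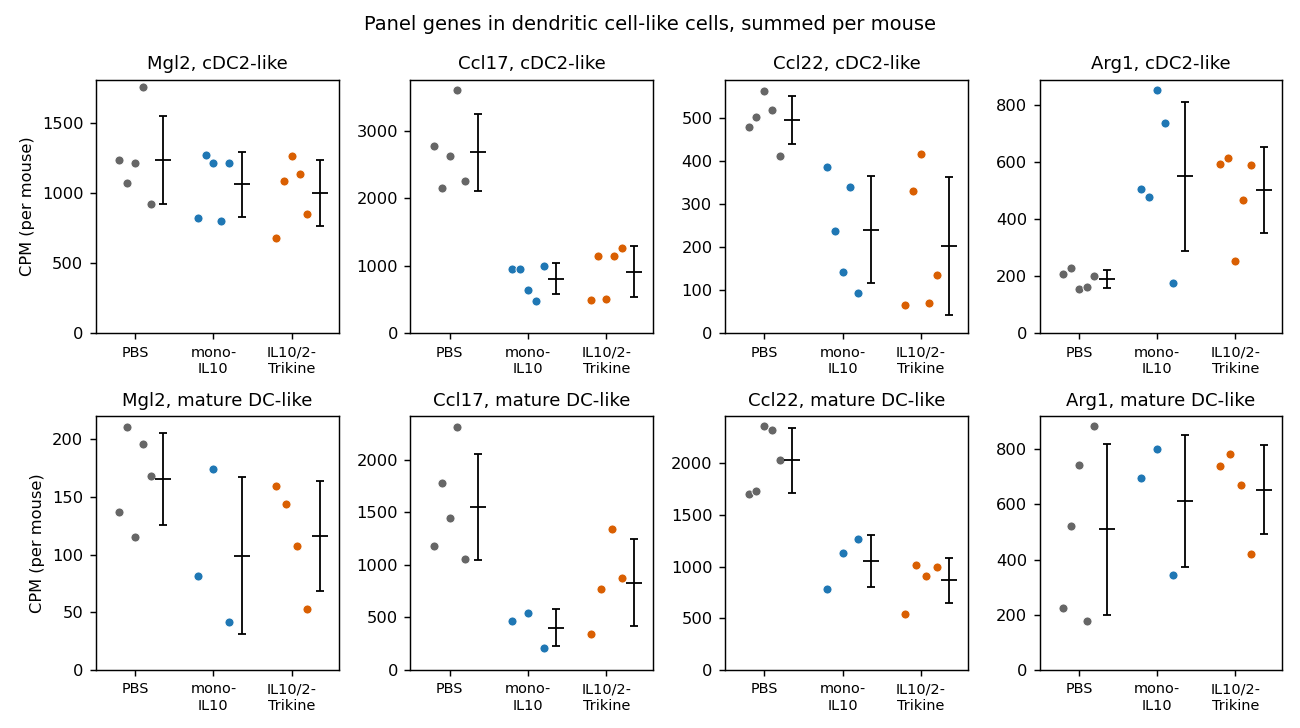
Levels of Mgl2, Ccl17, Ccl22 and Arg1 in cDC2-like (upper row) and mature DC-like cells (lower row), in CPM, with 1 dot per mouse and a bar for the mean ± SD of the mice with at least 10 cells of the class. In the cDC2-like cells Mgl2 overlaps among the 3 treatments, and Ccl17 of the treated mice lies below all PBS mice. In the mature DC-like cells Ccl17 of the IL10/2-Trikine mice overlaps with PBS.

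In mature DC-like cells, DCs that carry CCR7 and travel to lymph nodes, Ccl22 was the leading panel gene of the cluster. It stood at 1703, 1728, 2363, 2327 and 2030 CPM in the 5 PBS mice, at 778.4, 1127 and 1268 CPM in 3 mono-IL10 mice, and at 543.6, 1010, 911.0 and 999.7 CPM in 4 IL10/2-Trikine mice. All treated mice were below all PBS mice (-0.86 ± 0.22 and -1.29 ± 0.21). Ccl17 was 1554 ± 504.9, 402.3 ± 174.1 and 830.7 ± 411.9 CPM, without overlap for mono-IL10 (-1.80 ± 0.35) and with overlap for IL10/2-Trikine (-1.04 ± 0.32). Mgl2 (165.5, 99.0 and 115.9 CPM on average) and Arg1 (510.0 ± 310.2, 613.1 ± 238.6 and 652.7 ± 161.2) overlapped. Ccl24 ranged from 0 to 678.6, from 0 to 266.9 and from 0 to 168.3 CPM, with fitted values of -0.04 ± 1.20 and -1.08 ± 1.5. Both values rest on PBS mouse 5 and were 4.51 and 3.47 without it, so no direction is read. The other 4 genes had too few UMIs to be fitted. Clec10a was at 13.6 ± 6.98, 26.97 ± 25.3 and 2.95 ± 5.91 CPM, Chil3 at 3.03 ± 4.25, 20.2 ± 17.7 and 2.95 ± 5.91, and Ear2 at 10.1 ± 16.1, 3.10 ± 3.01 and 10.5 ± 17.3. Retnla reached at most 5.75 CPM in PBS and was at 0 in the treated mice. Of the 5 genes fitted, 2 were lower without overlap for mono-IL10, beside 4.31% of 3460 genes, and 1 for IL10/2-Trikine, beside 0.954%. These 365 cells, 1.84% of the UMIs of the compartment, held 40.7% of its Ccl22 UMIs.

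cDC1-like cells had at least 10 cells in 5 PBS mice but in only 1 mouse of each treated group, so the treatments were not compared. In PBS they held Mgl2 at 187.8 ± 96.3, Ccl17 at 212.4 ± 132.9, Ccl22 at 62.8 ± 49.0, Clec10a at 70.3 ± 15.6 and Arg1 at 336.0 ± 202.5 CPM (SD, n = 5). Ear2 was at 45.3 ± 17.4, Ccl24 at 11.4 ± 15.2 and Chil3 at 5.58 ± 8.55 CPM there, and Retnla was at 0 in all 5 mice. Pooled over mice, Ccl17 was 212.4 CPM in PBS (453 UMIs, exact Poisson 95% interval 193.2 to 232.8, counting error only), 503.6 CPM in mono-IL10 (459.5 to 550.8) and 583.1 CPM in IL10/2-Trikine (489.2 to 689.7). The thinned share of cDC1-like cells with a Ccl17 UMI was 16.7%, 17.3% and 26.4% (32.2%, 32.0% and 30.2% unthinned). No direction is read from these pooled values, with 75 and 53 treated cells behind them.

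Monocyte-like cells were the place of Chil3, which was among the cluster's 10 leading genes by fold. It stood at 616.4, 587.6, 566.8, 168.5 and 397.8 CPM in PBS mice and at 342.7, 276.2 and 624.6 CPM in the 3 mono-IL10 mice with at least 10 cells (-0.26 ± 0.31, overlapping). Pooled over the 35 IL10/2-Trikine cells it was 446.5 CPM (exact Poisson interval 326.9 to 595.5), and the thinned share of cells with a UMI was 42.4%, 42.0% and 39.4%. Mgl2 was at 65.4, 9.63, 93.0, 252.8 and 31.4 CPM in PBS mice and at 0 in all 3 mono-IL10 mice. Pooled over all mono-IL10 cells Mgl2 was at 7.25 CPM (2.66 to 15.8), against 69.2 CPM in PBS (53.8 to 87.8). These intervals cover counting error only, and the PBS mice themselves ranged from 9.63 to 252.8 CPM. Arg1 was 1128 ± 631.6 CPM in PBS and 2368 ± 880.7 CPM in mono-IL10 mice (1.10 ± 0.34), and Ccl24 391.1 ± 227.9 and 1313 ± 882.9 CPM (1.85 ± 0.40), both with overlap. Clec10a ranged from 9.34 to 84.3 CPM and from 37.3 to 75.0 CPM, and Ear2 from 9.63 to 234.0 and from 4.08 to 37.5 CPM. Ccl17 was at most 10.5 CPM and Ccl22 was at 0 in every mouse. Retnla was at 0, 0, 13.3, 3408 and 0 CPM in PBS mice and at most 4.08 CPM in the mono-IL10 mice.

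The panel was also read outside the classes used to choose it, in neutrophil-like and tumor epithelial-like cells, with edgeR's quasi-likelihood test and Benjamini-Hochberg adjustment over all genes fitted. These cells come from the same 3 libraries as the macrophages, so their values are not independent of those above, and the part of free RNA was not tested. In neutrophil-like cells Mgl2 was at 20.8, 68.4, 54.3, 66.5 and 0 CPM in PBS mice and at 2.65, 3.47, 0, 5.43 and 0 CPM in mono-IL10 mice. The difference passed the threshold (-3.52 ± 0.87, edgeR adjusted p = 0.0209), where 3.07% of 3422 genes fell, but missed it without PBS mouse 2, 3 or 4 (edgeR adjusted p = 0.0625, 0.0563 and 0.06). The 2 IL10/2-Trikine mice with enough cells, 11 and 10 of them, held Mgl2 at 249.1 and 0 CPM, with all 10 UMIs in the first. IL10/2-Trikine against mono-IL10 passed the threshold on that mouse (5.25 ± 1.22, edgeR adjusted p = 0.0259), where 0.935% of genes rose, and IL10/2-Trikine against PBS did not (1.72 ± 0.94, edgeR adjusted p = 0.484). When sums were thinned to the lowest total, Mgl2 fell under the filter and neither Mgl2 difference could be tested. Arg1, at 387.4, 212.4 and 444.0 CPM on average, did not pass the test in these comparisons (edgeR adjusted p = 0.399, 0.948 and 0.623). Ear2, at 21.6, 0 and 62.3 CPM, and Ccl24, at 75.9, 167.6 and 0 CPM, did not pass it either (for mono-IL10 edgeR adjusted p = 0.0814 and 0.622). The other 5 genes were under the filter. Among them Chil3 was at 49.5, 18.3 and 33.2 CPM and Clec10a at 3.88, 1.07 and 116.1 CPM, where all 38 IL10/2-Trikine cells held 7 Clec10a UMIs, while Ccl17, Ccl22 and Retnla were at most 6.32 CPM on average.

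In tumor epithelial-like cells Mgl2 averaged 2.14, 0.313 and 0.720 CPM, beside 3.34, 0.988 and 1.42 CPM in annotated T and NK cells of the same libraries. These cells differed in depth (medians of 19715, 28553 and 8477 against 2780, 3959 and 2635 UMIs). An Mgl2 UMI was in 1.59%, 0.356% and 0.272% of tumor epithelial-like cells, unthinned. In T and NK cells that share was 1.16%, 0.474% and 0.414%. Whether these values are free RNA or expression was not tested. The fitted Mgl2 differences from PBS passed the threshold (-2.69 ± 0.50, edgeR adjusted p = 0.00636, and -1.89 ± 0.50, edgeR adjusted p = 0.0139). Nothing about tumor cells is read from them. Ccl17 went from 4.68 CPM to 2.43 CPM (-0.86 ± 0.20, edgeR adjusted p = 0.0204) and 2.603 CPM (-0.84 ± 0.21, edgeR adjusted p = 0.00917), where 1.65% and 11.2% of 14962 genes fell, beside 2.78, 0 and 0.947 CPM in annotated T and NK cells. For Ccl17 the mono-IL10 call was lost without each of PBS mouse 5 and mono-IL10 mice 1, 3 and 5 (edgeR adjusted p = 0.0597, 0.0502, 0.0579 and 0.0557), and the IL10/2-Trikine call after thinning (-0.65, edgeR adjusted p = 0.0765). Arg1 was at 10.3, 8.63 and 18.7 CPM, beside 31.7, 36.6 and 35.97 CPM in annotated T and NK cells. An Arg1 UMI was in 8.16%, 9.73% and 5.45% of the former and in 6.78%, 12.3% and 7.86% of the latter, unthinned. The part of free RNA was likewise not tested, and nothing about tumor cells is read from Arg1. The fitted Arg1 difference between IL10/2-Trikine and mono-IL10 was 0.96 ± 0.35 (edgeR adjusted p = 0.0445), where 15.3% of genes rose. It was 0.49 without IL10/2-Trikine mouse 1, at 42.9 CPM, and the call was lost without each of 11 mice. Ccl24 (2.33, 3.503 and 2.93 CPM) and Chil3 (0.866, 0.388 and 1.10 CPM) did not pass the test in these comparisons, and Clec10a, Retnla, Ccl22 and Ear2, at most 1.73 CPM on average, were under the filter.

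Other genes of the alternative activation pathway, 62 in 6 lists, were tested in macrophage-like cells with edgeR and Benjamini-Hochberg adjustment over 11764 genes, of which 46 were list genes. The lists, like the panel, were chosen with earlier results of these data known, so the p-values below are not independent evidence of a direction. After mono-IL10 12 rose and 8 fell, where 13% and 13.2% of all genes did. After IL10/2-Trikine 10 rose and 8 fell, where 8.84% and 8.61% did. Against mono-IL10, IL10/2-Trikine had 3 higher and 7 lower, beside 3.54% and 5.73% of all genes. Median log2 fold changes over the list genes were 0.14, -0.01 and -0.07, and those over all genes were -0.0018, 0.00047 and 0.0073.

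Of 9 receptor and signaling genes tested, 4 rose after mono-IL10 and 3 after IL10/2-Trikine. Il4ra, the chain that IL-4 and IL-13 receptors share, went from 162.5 ± 16.4 CPM in PBS to 370.8 ± 42.7 after mono-IL10 (1.28 ± 0.10, edgeR adjusted p = 3.33e-08) and 356.2 ± 79.3 after IL10/2-Trikine (1.12 ± 0.11, edgeR adjusted p = 4.94e-07), above all PBS mice in 5 of 5 mice each. Between the treated groups Il4ra did not pass the threshold (-0.16, edgeR adjusted p = 0.395), but among cells with at least 2000 genes it did (-0.48, edgeR adjusted p = 0.00124). Jak3, a kinase of the receptor, went from 20.6 to 38.0 CPM (0.97 ± 0.09, edgeR adjusted p = 2.75e-07) and 38.1 CPM (0.90 ± 0.10, edgeR adjusted p = 8.05e-06), although among cells with at least 2000 genes the latter Jak3 difference was 0.46 (edgeR adjusted p = 0.14). Stat6 rose by 0.28 ± 0.06 after mono-IL10 (edgeR adjusted p = 0.00278) and not past the threshold after IL10/2-Trikine (0.16 ± 0.07, edgeR adjusted p = 0.122).

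Of the transcription factors, Irf4, a STAT6 target that takes part in alternative activation and in cDC2 development, fell from 28.7 ± 5.57 CPM to 9.01 ± 4.25 (-1.52 ± 0.22, edgeR adjusted p = 4.25e-05) and 10.0 ± 3.31 (-1.48 ± 0.28, edgeR adjusted p = 0.000921), although among cells with at least 2000 genes the latter was -0.76 (edgeR adjusted p = 0.254). Pparg, the lipid-sensing receptor of the program, fell after mono-IL10 (-1.23 ± 0.21, edgeR adjusted p = 0.000176), a call that was lost when sums were thinned to the lowest total (-0.84, edgeR adjusted p = 0.151). Of 9 such factors, 1 rose and 3 fell after mono-IL10, and 2 rose and 1 fell after IL10/2-Trikine. Between the treated groups, Myc was higher in IL10/2-Trikine (0.60, edgeR adjusted p = 0.00508), as was Batf3 (0.52, edgeR adjusted p = 0.0411). After thinning neither passed (Myc 0.62, edgeR adjusted p = 0.0969, and Batf3 0.41, edgeR adjusted p = 0.574), and Batf3 was also lost without a filter, among cells with at least 2000 genes, and without each of 5 mice in turn, down to 0.34 (edgeR adjusted p = 0.326) without IL10/2-Trikine mouse 1.

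**Figure D5:**
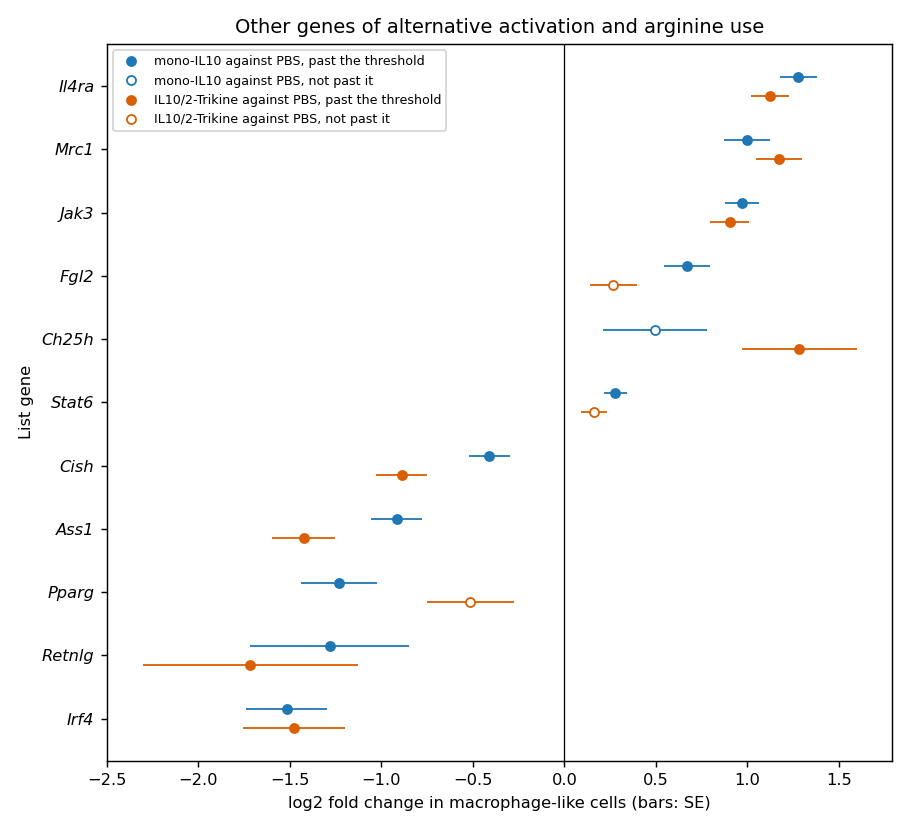
Log2 fold change against PBS of 11 list genes in macrophage-like cells for both treatments, with bars for ± SE and filled points for edgeR adjusted p under 0.05. Il4ra, Jak3 and Mrc1 lie to the right of 0 and Irf4, Cish and Ass1 to the left in both treatments.

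Of 13 other targets tested, 4 rose and 2 fell after mono-IL10, and 4 rose and 3 fell after IL10/2-Trikine. Mrc1, the mannose receptor CD206 that is often read together with Mgl2, rose from 1253 ± 149 CPM to 2354 ± 281 (0.998 ± 0.13, edgeR adjusted p = 8.5e-06) and 2817 ± 733 (1.17 ± 0.13, edgeR adjusted p = 3.72e-06), opposite to Mgl2 in the same cells. Fgl2, a secreted regulator of immune cells, rose after mono-IL10 (0.67, edgeR adjusted p = 0.000464), and Ch25h, the cholesterol 25-hydroxylase, rose after IL10/2-Trikine (1.28, edgeR adjusted p = 0.00729). Cish, a feedback inhibitor of STAT5 signaling, fell after IL10/2-Trikine (-0.89, edgeR adjusted p = 0.000139). Among cells with at least 2000 genes neither of these Ch25h and Cish differences passed the threshold (1.30, edgeR adjusted p = 0.0635, and -0.75, edgeR adjusted p = 0.0621). Cish was also lower in IL10/2-Trikine than in mono-IL10 (-0.48, edgeR adjusted p = 0.0351). That call was lost after thinning (-0.61, edgeR adjusted p = 0.0976), among cells with at least 2000 genes (-0.36, edgeR adjusted p = 0.407), with panel and list genes allowed in the clustering (-0.39, edgeR adjusted p = 0.0629), and without each of PBS mouse 5, mono-IL10 mice 1 and 2 and IL10/2-Trikine mice 1, 3, 4 and 5 (edgeR adjusted p = 0.0504 to 0.0892). Retnlg, a relative of Retnla and a neutrophil transcript, fell after both (-1.28, edgeR adjusted p = 0.0333, and -1.72, edgeR adjusted p = 0.0488) from levels under 10 CPM, and these calls were lost under several alternatives. Cd83 and Il1rn were lower in IL10/2-Trikine than in mono-IL10 (-0.51 and -0.45, edgeR adjusted p = 0.00306 each).

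Around Arg1, 13 genes of arginine and polyamine handling were tested, with 3 up and 2 down after mono-IL10, and 1 up and 4 down after IL10/2-Trikine. Ass1, the synthase that rebuilds arginine from citrulline, fell from 56.2 CPM to 27.7 (-0.92 ± 0.14, edgeR adjusted p = 4.95e-05) and 20.8 (-1.43 ± 0.17, edgeR adjusted p = 1.11e-05). Odc1, which turns the ornithine made by arginase into the polyamine putrescine, was 1047, 1259 and 775.5 CPM. It was higher than PBS after mono-IL10 (0.35, edgeR adjusted p = 0.00857), lower after IL10/2-Trikine (-0.43, edgeR adjusted p = 0.00392), and lower in IL10/2-Trikine than in mono-IL10 (-0.78, edgeR adjusted p = 5.58e-05). Smox, the spermine oxidase, and Arg2, the mitochondrial arginase, were also lower in IL10/2-Trikine than in mono-IL10 (-0.61, edgeR adjusted p = 3.83e-05, and -0.78, edgeR adjusted p = 0.00044), while Arg1 itself overlapped between these groups. Of the inducing cytokines only Csf1, which feeds macrophages, and the alarmin Il33 could be tested in macrophage-like cells, and they are named for that reason and not by the rule. Csf1 fell after mono-IL10 (-0.41, edgeR adjusted p = 0.0403) and Il33 did not pass the test (-0.52, edgeR adjusted p = 0.209), and the chemokine receptors Ccr3, Ccr4 and Ccr8 could not.

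Of the 5 classes, cDC1-like cells changed in share after both treatments and monocyte-like cells after IL10/2-Trikine. Of all macrophage-like, monocyte-like and DC-like cells of a mouse, cDC1-like cells made up 1.75 ± 0.18% in PBS, 0.790 ± 0.21% after mono-IL10 and 0.481 ± 0.21% after IL10/2-Trikine (differences of -0.955 and -1.26 percentage points, each with an adjusted p = 0.0397 in an exact two-sided permutation test, below all PBS mice in 5 of 5). Monocyte-like cells made up 2.26 ± 1.25% in PBS and 0.596 ± 0.35% after IL10/2-Trikine (-1.66, adjusted p = 0.0397 in the exact permutation test, below in 5 of 5). Only cells with 1 clear hashtag count in these shares. Of the 205, 75 and 53 cDC1-like cells, 134, 49 and 24 had one (PBS, mono-IL10 and IL10/2-Trikine). So had 162 of 265, 101 of 150 and 21 of 35 monocyte-like cells. Among macrophage-like cells these numbers were 6959 of 7170, 5500 of 5585 and 4275 of 4741. The shares are thus not of all such cells, and the part of this uneven loss in the differences was not tested. With 5 mice a group there are 252 splits and the smallest unadjusted p is 0.00794. With 40 clusters, or with panel genes allowed in the clustering, the differences were close to these values but missed the threshold, at -0.976 and -0.919 for cDC1-like cells after mono-IL10, -1.31 and -1.23 after IL10/2-Trikine, and -1.44 and -1.60 for monocyte-like cells. Among cells with at least 2000 genes they were -1.57, -0.975 and -0.451 and also missed it. The monocyte-like call was lost without each of the 5 IL10/2-Trikine mice, and both cDC1-like calls without IL10/2-Trikine mouse 1, 2, 3 or 5, that for mono-IL10 only through the adjustment over 15 comparisons. The macrophage-like share, 89.6%, 92.1% and 92.5%, did not pass the test (adjusted p = 0.272 and 0.139 against PBS in the exact permutation test). Nor did the cDC2-like share, 4.55%, 4.05% and 4.22%, the monocyte-like share after mono-IL10, 1.62%, or that of mature DC-like cells, 1.86%, 1.45% and 2.17%.

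Across the 15 mice, the genes of macrophage-like cells whose level followed Mgl2 most closely after the treatment means were subtracted were Prkce (r = 0.88), Cpeb3 (0.81), Clec2d (0.79), Stk3 (0.79) and Retnla (0.79), among 5884 genes of at least 20 CPM. All 15 points share 3 libraries, and the values describe likeness only. The value for Retnla includes IL10/2-Trikine mouse 3, at 220.1 CPM where the others of its group lay between 1.01 and 12.98 CPM. That mouse was also the highest of its group in Mgl2, and the likeness without it was not computed. Ccl22 was under that level and was not ranked (-0.10). The other panel genes ranked lower than Retnla, with Ccl24 at 108 (0.64), Ccl17 at 192 (0.59), Ear2 at 453 (0.51), Chil3 at 904 (0.41), Clec10a at 1360 (0.32) and Arg1 at 1758 (0.25).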

How the data were processed

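The samples were 3 gene libraries and their 3 hashtag libraries from PBS, mono-IL10 and IL10/2-Trikine tumors. The authors' deposited values are counts of UMIs per gene and barcode, without normalization, made with Cell Ranger v9 on GRCm39 per the study's methods. The submitters' processing notes also name Seurat 5.1.0 and DESeq2 1.46.0. A deposited annotation covers T and NK cells only, and its 7858 cells under 1 library name that matches no sample here were not used.

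A barcode was kept if it had 1000 or more genes and no more than 10% of its UMIs were mitochondrial. Mice were called from the hashtags with HTODemux (Seurat 5.3.0, positive quantile 0.99). Cells with more than 1 hashtag were left out as doublets, whereas doublets within a mouse could not be seen and no other caller was run. The 92853 remaining cells were clustered on 2000 variable genes and 40 principal components into 60 k-means clusters, leaving out the 71 panel and list genes, and the 23353 macrophage, monocyte and DC cells again into 25 clusters on 30 components (scikit-learn 1.9.0). A cluster was named from marker genes when its score reached 0.25, no other lineage passed 0.25 of that score and at least 3 markers were detected. Score limits and the second round were set after the first clusters had been seen. Differences from the study's cell names may come from these rebuilt names.

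UMIs were summed per mouse and class (at least 10 cells) and fitted across the 3 groups with edgeR 4.0.16 (R 4.3.3, TMM, filterByExpr, quasi-likelihood, Benjamini-Hochberg threshold 0.05). Shares of classes were compared by exact permutation over 252 splits, adjusted over 15 comparisons. Simulated 4-fold changes in IL10/2-Trikine against PBS were recovered at 96.0% in macrophage-like cells (11633 genes), 52.1% in neutrophil-like cells (3162 genes) and 100% in tumor epithelial-like cells (14847 genes), and 2-fold changes at 83.2%, 9.47% and 83.8%. The neutrophil-like values rest on 2 IL10/2-Trikine mice, and mono-IL10 against PBS was not simulated. Macrophage-like UMIs per mouse ran from 876701 to 12395479. Nothing shows that the mice of a library were processed separately after pooling, and intervals cover counting error only.

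The panel and the 6 gene lists were chosen with earlier results of these data known. All panel genes were named in every class. From the lists, the genes past the threshold were named up to the 8 largest changes per comparison, with Il4ra, Stat6, Mrc1 and Irf4 always named. Likeness to Mgl2 was Pearson's r of log2(CPM + 1) over mice after subtracting group means. Alternatives were DESeq2 1.42.0, other filters, thinned sums, other clusterings, single-cell means and leaving out each mouse. Promoter sequences are from RefSeq on GRCm38.p6, another build than that of the counts, and were matched by symbol for 6 of 9 genes.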

Additional observations from a re-analysis of the deposited data

Results flagged for a closer look

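In 86 groups of 4 or 5 mice (1 panel gene, 1 class and 1 treatment each), 8 values stood far from the rest by Dixon's criterion (0.829 for 4 mice, 0.71 for 5), after values resting on fewer than 4 UMIs were left out. Chance gives about 1 in 20 such groups. No explanation of these values was tested.

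In macrophage-like cells, Chil3 was at 69.8 CPM in mono-IL10 mouse 5, where the other 4 mice lay between 12.6 and 28.0 CPM. Its 380 UMIs came from 91 cells with 93 in the highest, and without that cell the level was 52.8 CPM. In IL10/2-Trikine mouse 3, Retnla was at 220.1 CPM (others 1.01 to 12.98) and Chil3 at 233.8 CPM (others 5.02 to 30.1). There 94 of 193 Retnla UMIs and 132 of 205 Chil3 UMIs came from 1 cell each, and without those cells the levels were 113.3 and 83.8 CPM, still the highest of the group.

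In monocyte-like cells, Retnla was at 3408 CPM in PBS mouse 4 (others 0 to 13.3), with all 364 UMIs in 3 cells and 948.1 CPM left without the highest cell. In cDC2-like cells, Chil3 was at 43.6 CPM in PBS mouse 5 (others 0 to 4.99), with 14 of 17 UMIs from 1 cell, and at 12.7 CPM in mono-IL10 mouse 1 (others 0), with 9 of 11 UMIs from 1 cell. In mature DC-like cells, Ccl24 was at 678.6 CPM in PBS mouse 5 (others 0 to 16.5), with 109 UMIs in 3 cells, and Ear2 at 38.5 CPM in PBS mouse 1 (others 0 to 6.39), with 6 of 7 UMIs from 1 cell.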

How the results depend on the processing

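Of the fold changes of panel genes in macrophages, monocytes and DCs, 432 of 446 were taken as unmoved under the alternatives. That meant a move of less than the spread between mice or, for single-cell means, only the same sign. With a mouse left out, 919 of 924 moved by less than that spread. A count that changed by a small factor was also taken as unmoved, so the changed counts below are not a complete list. Counts without overlap that moved were, among cells with at least 2000 genes, 1 higher for IL10/2-Trikine against mono-IL10 in macrophage-like and in cDC2-like cells, 2 lower for IL10/2-Trikine in cDC2-like cells and 1 lower for mono-IL10 in mature DC-like cells. In cDC2-like cells they were also 1 lower for mono-IL10 after thinning to the lowest total, 2 lower for IL10/2-Trikine with DESeq2 size factors or without the highest cell of each mouse, and 0 higher with 40 clusters or without that cell. Of list genes, thinning gave 5 higher for IL10/2-Trikine, 5 lower for mono-IL10 and 1 higher for IL10/2-Trikine against mono-IL10, the 2000-gene minimum 6 higher for IL10/2-Trikine and 12 lower against mono-IL10, and no filter 11 lower against mono-IL10. Reversed values were Irf4 between the treated groups (-0.27 thinned, -0.16 to 0.29 with a mouse left out, below 0 for -0.16, -0.12 and -0.04) and Retnlg for IL10/2-Trikine (0.23 with 40 clusters). Outside the rule, panel calls in neutrophil-like cells were 0 after thinning for mono-IL10 and between the treated groups, and without a filter 4, 4 and, for IL10/2-Trikine against PBS, 1. In tumor epithelial-like cells they were 4 for mono-IL10 and 3 between the treated groups without a filter, 2 between them by DESeq2's Wald test and 1 for IL10/2-Trikine after thinning. The shares of all genes called, or without overlap, under these same alternatives are not given here. The shares given for the main fit do not stand in for them, so nothing is read from these counts. The unnamed-cluster and highest-cell alternatives were chosen after seeing the data.

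Shares depended on the clustering. In percentage points, the monocyte-like difference for IL10/2-Trikine was -0.451, -1.44 and -1.60 with the 2000-gene minimum, 40 clusters and panel genes allowed in the clustering, and the cDC1-like differences were -1.57, -0.976 and -0.919 for mono-IL10 and -0.975, -1.31 and -1.23 for IL10/2-Trikine, none past the threshold. With the 2000-gene minimum, the macrophage-like difference reversed to -5.22 against PBS and -6.66 against mono-IL10, cDC1-like between the treated groups to 0.600, and cDC2-like to 0.241 for mono-IL10 and 3.65 for IL10/2-Trikine. With panel genes allowed, cDC2-like values reversed to 0.214 for mono-IL10 and -0.398 between the treated groups. The cause of these moves was not tested.

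Leaving out each mouse in turn gave ranges of 0 to 1 higher in macrophage-like cells for IL10/2-Trikine (1 without PBS mouse 3), in cDC2-like cells 0 to 1 higher for mono-IL10, 1 to 2 lower for IL10/2-Trikine and 0 to 1 higher between the treated groups, and in mature DC-like cells 1 to 2 lower for IL10/2-Trikine and 0 to 1 lower and 0 to 1 higher between the treated groups. Counts that changed only by a small factor are not listed here. Without PBS mouse 2, for example, Ear2 in macrophage-like cells was also lower without overlap for IL10/2-Trikine. List genes ranged from 5 to 9 lower for IL10/2-Trikine (5 without PBS mouse 5) and from 1 to 3 higher between the treated groups. Panel calls ranged from 0 to 3 for mono-IL10 in neutrophil-like cells, and in tumor epithelial-like cells from 0 to 2 between the treated groups and 1 to 3 for mono-IL10. The matching shares of all genes with a mouse left out are not given here, and nothing is read from these ranges of counts. Share differences ranged from 2.15 to 3.60 (macrophage-like, IL10/2-Trikine), -0.472 to 1.09 (macrophage-like, between the treated groups), -1.91 to -1.12 (monocyte-like, IL10/2-Trikine), -1.04 to -0.893 and -1.33 to -1.21 (cDC1-like, mono-IL10 and IL10/2-Trikine), -1.20 to 0.176 (cDC2-like, IL10/2-Trikine) and -0.695 to 0.678 (cDC2-like, between the treated groups). No paired analysis was possible because each mouse was given 1 treatment, and equal mouse numbers in the 3 libraries do not link mice. The IL10/2-Trikine library had the shallowest macrophage-like cells (median 2705 UMIs) and 0 mice with at least 10 monocyte-like cells, so its monocyte-like cells were not compared.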

Other observations

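Il4 and Il13, the cytokines that start alternative activation, were highest outside the macrophage, monocyte and DC classes. Il13 was at 731 CPM in 159 mast cell- and basophil-like cells, which held 57.1% of its UMIs among all clustered cells. Il4 was at 383 CPM there with 35.1% of its UMIs, while 40403 tumor epithelial-like cells held 35.2% of Il4 UMIs at 0.533 CPM. The 40403 tumor epithelial-like cells held 83.0% of the UMIs of Il33, an alarmin upstream of IL-13, at 83.6 CPM, beside 131 CPM in fibroblast-like cells. They held 89.7% of those of Csf2 (GM-CSF) at 89.8 CPM, beside 345 CPM in activated CD4 T cells, and 45.6% of those of Csf1 (M-CSF) at 20.4 CPM, beside 546 CPM in neutrophil-like, 78.4 CPM in fibroblast-like and 31.3 CPM in macrophage-like cells. Among annotated T cells, Il13 was at 56.3 CPM in activated CD4 T cells, with 29 UMIs from the 28 such cells of the IL10/2-Trikine library. Of the receptors of the panel's chemokines, Ccr3 was at 59.7 CPM in 127 regulatory T cells, from 20 UMIs. Ccr4 rested on 4 UMIs there (11.9 CPM) and on 3 UMIs in 21 Th17 cells and ILCs (54.9 CPM), too few for an order of cell types. Ccr8, of the same list, was at 185 CPM in regulatory T cells (62 UMIs) and at 108 CPM in activated CD4 T cells (77 UMIs). These are pooled values with no test between treatments.

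A macrophage-like cluster led by Cd163, Npl and Ccl8 (1934 cells) made up 2.71 ± 1.43% of the compartment in PBS mice, 14.3 ± 2.66% after mono-IL10 and 12.4 ± 3.89% after IL10/2-Trikine (SD, n = 5 each), and its pooled Mgl2 was 153.8, 13.4 and 41.5 CPM. A cluster led by Gdf15 made up 12.2 ± 3.07%, 4.31 ± 1.35% and 0.975 ± 0.336%. These clusters were picked after their values were seen, and their shares were not tested.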
